A study of Mus musculus with 4 samples.

Results

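The genes for ubiquitin-conjugating (E2) enzymes were examined in a map of Flag-tagged Nynrin on chromatin, made by chromatin immunoprecipitation with a Flag antibody and sequencing (ChIP-seq). The members are the 37 protein-coding genes, of 21883 in the gene table, whose symbol begins with Ube2. Both groups of the study, Flag ChIP and input chromatin with 2 libraries each, were prepared from bone marrow depleted of lineage-positive cells, taken from C57BL/6 mice aged 8 weeks, all carrying the transgene 3xFlag-Nynrin-Tg. The lineage-negative fraction is what remains once cells with surface markers of mature lineages are removed, a mixture that includes stem and progenitor cells. The promoter driving the transgene and the number of mice behind each library are not given in the sources used here, so the spread between the 2 ChIP replicates may be technical. The peak lists of the 2 ChIP libraries were analysed, with 12702 peaks in replicate 1 and 25787 in replicate 2 on chromosomes 1 to 19, X and Y. The input libraries and any untagged cells were not analysed here, the lists carry no read counts, and they give no expression against which the cell type could be checked. All positions are in mm10.

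Ubiquitin reaches its targets through a chain of 3 enzyme classes. An activating enzyme (E1) loads ubiquitin onto a cysteine of an E2, and the E2, guided by a ligase (E3) that holds the substrate, hands it to a lysine or to a growing chain. The E2 often sets the type of chain, and so whether the substrate is degraded or used for signalling. Related E2s carry NEDD8, ISG15 or other modifiers in place of ubiquitin, and a few members have lost the catalytic cysteine and act as partners of another E2. In blood, Ube2t serves the Fanconi anaemia pathway, whose loss causes marrow failure, while Ube2o and Ube2h take part in the remodelling of proteins during red cell maturation.

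A gene is termed called where a peak summit lay within 1000 bp of either of its ends in both replicates. Of the 37 Ube2 genes, 27 (73.0%) were called, beside 31.9% of all 21883 protein-coding genes. Replicate 1 had such a summit at 27 members (73.0%, beside 32.6% of all genes) and replicate 2 at 30 (81.1%, beside 45.5%). The 27 members found in replicate 1 were all found in replicate 2, as were 6977 of all 7127 genes found in replicate 1. Of all 21883 genes, 2973 had a summit in replicate 2 alone and 11783 had none in either. Ube2a, Ube2l6 and Ube2w had a summit in replicate 2 alone, and 7 had none at an end in either, among them Ube2d2b, Ube2dnl1, Ube2dnl2, Ube2e2, Ube2ql1 and Ube2u. These are counts over a list of genes in 2 libraries of a single condition, and no test was made of them. The count fell to 16 where −log10 q had to reach 5 in each list (21.1% of all genes), to 13 where the peaks had to overlap by 50% of both (17.96%), and to 9 where the fold enrichment had to reach 5 (9.51%). Ube2cbp belongs by its symbol, although its product is a protein that binds Ube2c and not an E2, and without it 26 of 36 were called.

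The sequences before the start sites of 6 members are shown because they cover the range of what was found: Ube2d3 had the highest score of the family (the lower of the percentile ranks of a gene's strongest gene-end peak in the 2 lists), Ube2n and Ube2v1 encode an E2 and its inactive partner and tied for the family's highest fold enrichment in replicate 2, Ube2e1 and Ube2e2 are close relatives of which only the first was called, and Ube2u had no peak nearby. Each is the 250 bases that precede an annotated start site, 5′ to 3′ in the direction of transcription, from the RefSeq promoter table of GRCm38.p6, the assembly behind mm10. Capitals mark matches on either strand to any of the motifs described further on.
Ube2d3, chr3:135437982-135438231, + strand: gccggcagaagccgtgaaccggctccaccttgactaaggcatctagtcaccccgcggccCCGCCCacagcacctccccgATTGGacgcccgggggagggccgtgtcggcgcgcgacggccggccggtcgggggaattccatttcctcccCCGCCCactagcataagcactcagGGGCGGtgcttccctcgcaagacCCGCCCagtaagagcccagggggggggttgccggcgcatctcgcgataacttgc
Ube2n, chr10:95514912-95515161, + strand: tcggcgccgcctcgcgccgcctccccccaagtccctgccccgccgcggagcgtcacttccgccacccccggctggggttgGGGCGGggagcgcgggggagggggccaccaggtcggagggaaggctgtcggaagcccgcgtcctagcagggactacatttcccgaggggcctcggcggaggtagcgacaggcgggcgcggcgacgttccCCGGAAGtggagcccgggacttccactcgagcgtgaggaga
Ube2v1, chr2:167632006-167632255, - strand: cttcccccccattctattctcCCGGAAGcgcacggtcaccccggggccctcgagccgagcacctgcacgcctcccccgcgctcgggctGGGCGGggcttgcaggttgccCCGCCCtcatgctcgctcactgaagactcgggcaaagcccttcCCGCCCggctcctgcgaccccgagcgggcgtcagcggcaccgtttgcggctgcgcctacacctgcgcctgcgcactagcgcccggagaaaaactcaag
Ube2e1, chr14:18331845-18332094, - strand: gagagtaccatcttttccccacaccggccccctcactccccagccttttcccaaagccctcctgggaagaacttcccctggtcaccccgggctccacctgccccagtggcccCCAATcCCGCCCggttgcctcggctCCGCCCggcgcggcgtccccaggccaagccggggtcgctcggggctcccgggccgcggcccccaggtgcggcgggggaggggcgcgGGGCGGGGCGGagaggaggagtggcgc
Ube2e2, chr14:18893772-18894021, - strand: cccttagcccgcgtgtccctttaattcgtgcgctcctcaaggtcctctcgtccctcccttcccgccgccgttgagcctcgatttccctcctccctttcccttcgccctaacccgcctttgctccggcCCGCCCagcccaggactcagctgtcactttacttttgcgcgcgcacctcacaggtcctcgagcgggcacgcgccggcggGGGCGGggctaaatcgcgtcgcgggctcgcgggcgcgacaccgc
Ube2u, chr4:100478617-100478866, + strand: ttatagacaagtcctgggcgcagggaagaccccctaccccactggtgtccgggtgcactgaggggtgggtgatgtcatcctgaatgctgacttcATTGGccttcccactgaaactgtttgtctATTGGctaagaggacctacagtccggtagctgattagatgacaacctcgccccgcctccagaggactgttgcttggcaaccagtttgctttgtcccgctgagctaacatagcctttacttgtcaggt
In these windows Ube2d3 held 26 CpG dinucleotides, Ube2n 32, Ube2v1 28, Ube2e1 23 and Ube2e2 32, while Ube2u held 6. The Ube2e2 window was thus at the CpG-rich end of the 6, although no peak was found near it.

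**Figure D1:**
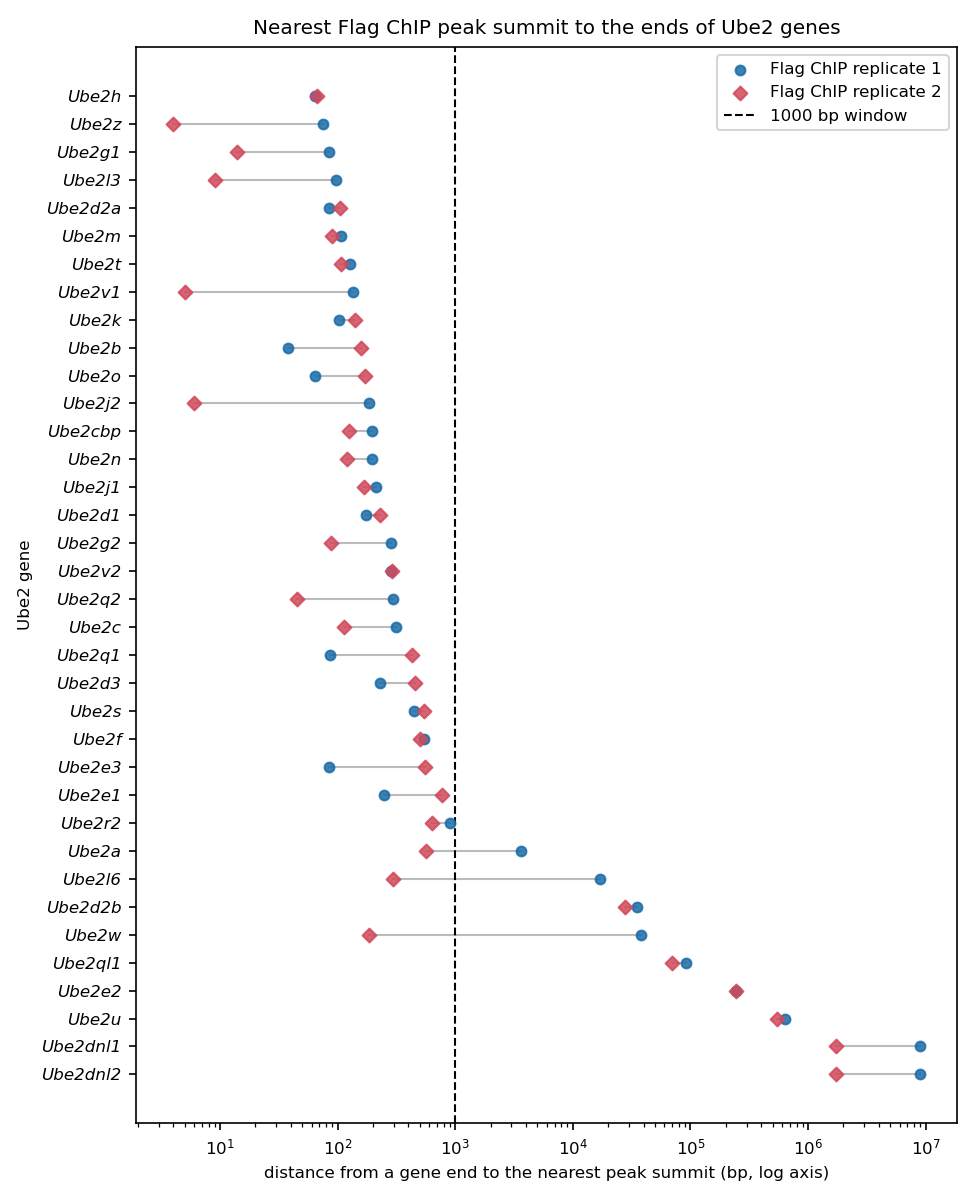
Distance from the nearer gene end to the nearest peak summit (bp, log axis) for the Ube2 genes described in the text, with circles for Flag ChIP replicate 1, diamonds for replicate 2 and a dashed line at the 1000 bp window. The called members lie left of the line in both replicates, and the other members shown reach from 3606 bp for Ube2a to 8895516 bp for Ube2dnl2 in replicate 1.

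The broad-range D family hands ubiquitin to many different ligases. By the score its leading member was Ube2d3 (chromosome 3, 135438232 to 135468214), although Ube2d2a ranked above it in replicate 2. The Ube2d3 peak ran from 135437730 to 135439439 in replicate 1 with a fold enrichment of 8.16, and from 135437691 to 135441230 in replicate 2 with a fold enrichment of 12.6. Fold enrichment is the authors' ratio of signal to the peak caller's background, used here to rank peaks within a list and not to compare the lists. Both peaks stood at percentile 98.9 of their own list, and at 3540 bp the replicate 2 peak was the widest of the strongest gene-end peaks of the called members. Both summits were nearer the end of a noncoding gene, 4930539J05Rik (205 and 25 bp), than the end of Ube2d3 (228 and 458 bp). Ube2d2a (chromosome 18, 35771559 to 35807172) had peaks at 35771295 to 35772020 and at 35770735 to 35772262, with fold enrichments of 5.55 and 12.8, and the summits of the 2 replicates were 21 bp apart. Ube2d1 was lower, with 4.06 in replicate 1 and 5.85 in replicate 2. The family's 3 remaining genes, Ube2d2b, Ube2dnl1 and Ube2dnl2, are 1616, 930 and 929 bp long and had no summit near them. The nearest summits to Ube2d2b lay 34989 and 27490 bp away in replicates 1 and 2, and the nearest to Ube2dnl1 and Ube2dnl2, neighbours on the X chromosome, lay at least 1719489 bp away.

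Ube2n builds K63-linked ubiquitin chains, used in signalling and DNA repair, and does so only together with Ube2v1 or Ube2v2, which lack the catalytic cysteine. All 3 genes were called. At Ube2n (chromosome 10, 95515162 to 95545658) the peaks spanned 95514147 to 95516015 and 95514442 to 95516054, with fold enrichments of 5.39 in replicate 1 and 13.0 in replicate 2. Ube2v1 also had 13.0 in replicate 2, where both stood at percentile 99.2, and 4.48 in replicate 1. The end of the noncoding gene Gm31852 was nearer the replicate 1 summit (60 bp) than that of Ube2v1 (134 bp), while the replicate 2 summit was 5 bp from Ube2v1. A further peak lay outside the window, 2514 and 2555 bp upstream of the gene end at the start of Ube2v1, with fold enrichments of 7.85 and 9.48. Gm31852 was slightly nearer to this further peak as well, at 2440 and 2481 bp. Ube2v2 ranked lower in both lists, with 3.27 at percentile 18.03 and 5.31 at percentile 62.2.

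Protein quality control at the endoplasmic reticulum uses Ube2g1, Ube2g2 and the membrane-anchored Ube2j1 and Ube2j2, and all 4 were called. Ube2g1 (chromosome 11, 72607261 to 72686481) came next after Ube2d3 by the score, with peaks at 72606713 to 72607459 and 72606952 to 72609199 and fold enrichments of 6.87 and 10.1. Ube2j1 (chromosome 4, 33031380 to 33052367) had peaks at 33030655 to 33032117 and 33030671 to 33031987, with fold enrichments of 5.34 and 7.17. Their paralogs did not rank alike in both replicates. Ube2g2 had 3.12 in replicate 1, at percentile 13.1, and 7.17 in replicate 2, at percentile 80.9. Ube2j2 was the only member with a summit at both ends in both replicates. At its start the fold enrichments were 4.16 and 9.83, and at the far end, 217 and 181 bp from it, they were 4.81 and 4.77, so that the stronger peak lay at opposite ends in the 2 replicates.

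The E2s that work with the anaphase-promoting complex, the ligase that ends mitosis, are Ube2c, which starts chains, and Ube2s, which extends them. Both were called, at different ranks. At Ube2s (chromosome 7, 4808014 to 4812340) the peaks ran from 4811969 to 4813594 and from 4812064 to 4813792, with fold enrichments of 6.27 and 11.8, and the summits lay 443 and 541 bp upstream of the start site. Ube2c had 2.80 in replicate 1, the lowest of the called members at percentile 5.65, and 8.24 in replicate 2, at percentile 87.4. Ube2t, the Fanconi anaemia E2, had the same value of 8.24 in replicate 2 and 3.27 in replicate 1.

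Ube2a and Ube2b encode the mammalian Rad6 enzymes, which ubiquitinate the replication clamp PCNA with Rad18 and histone H2B with Rnf20 and Rnf40. Only Ube2b was called. Its gene-end peak (fold enrichment 3.70 in replicate 1 and 7.17 in replicate 2) lay upstream of its start sites in the promoter table, and a second peak lay at the nearest of them (89 and 44 bp downstream), with fold enrichments of 6.72 and 7.50. In replicate 1 the second peak was at percentile 95.2 and the gene-end peak at percentile 36.2. The end of a neighbour, Cdkl3, was 145 and 100 bp from the summits of the second peak, which therefore cannot be assigned to one of the genes. Ube2a, on the X chromosome (36874295 to 36884222), had a peak in replicate 2 alone, from 36874126 to 36874907, with its summit 563 bp inside the gene and a fold enrichment of 4.78, and the nearest replicate 1 summit was 3606 bp away.

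NEDD8, which activates the cullin ligases, is conjugated by Ube2f and Ube2m, and both were called. Ube2f (chromosome 1, 91249690 to 91286521) was at percentile 97.9 in replicate 1, with a peak at 91249993 to 91250504 and a fold enrichment of 7.60. In replicate 2 it was at percentile 82.8, with a peak at 91249751 to 91250964 and 7.44. Ube2m went the other way, with 4.32 at percentile 60.3 in replicate 1 and 10.4 at percentile 95.6 in replicate 2. The median rank of all called genes also rose, from 58.9 to 85.4. Ube2l6 (chromosome 2, 84798828 to 84810003), the ISG15 E2 of the interferon response, had summits at its start in replicate 2 alone. The stronger peak spanned 84798985 to 84800136 with a fold enrichment of 5.05, and the nearest replicate 1 summit was 17005 bp away, at the end of Timm10. Its modifier gene Isg15 had a summit in neither replicate, and its E1 gene Uba7 had one in replicate 2 alone (4.05).

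Among the other ubiquitin E2s, Ube2q1 (chromosome 3, 89773609 to 89783997) had the highest score. Its peaks spanned 89772527 to 89773874 and 89772347 to 89774833, with fold enrichments of 5.68 and 10.1. The replicate 2 summit was nearer the end of the noncoding gene 4632404H12Rik (221 bp) than that of Ube2q1 (430 bp). Ube2q2, a relative of Ube2q1, had 3.54 and 5.85, and Ube2ql1 had no summit within 70049 bp in either replicate. Ube2e3 had 4.90 and 8.77. Ube2e1 was the weakest called member in replicate 2, sharing 4.52 with Ube2o, and its peaks in the 2 replicates did not overlap. For Ube2e2, at 320722 bp the longest gene of the family, the nearest summits in both replicates were those of Ube2e1, 241808 and 242326 bp away. Ube2l3, a partner of HECT and RBR ligases, had a peak at its start (3.07 and 6.11) and a higher-ranking one 19979 and 19913 bp inside the gene (9.07, at percentile 99.5, and 7.71, at percentile 84.5), with no other gene end closer.

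Ube2k and Ube2r2 build K48-linked chains, the signal for degradation. Ube2k had the widest gap in rank between replicates, at percentile 10.2 in replicate 1 (3.02) and 94.9 in replicate 2 (10.1). Over all called genes the median ranks were 58.9 and 85.4. Ube2k was the only called member whose strongest gene-end peak was within 1000 bp of the end of another protein-coding gene, Smim14. Ube2r2 had 3.81 and 5.45, with summits on opposite sides of its start. Of the 2 E2s linked to red cell maturation, Ube2h had 3.62 and 9.57 and Ube2o had 4.93 and 4.52. Ube2z, which takes ubiquitin from the E1 Uba6, had 3.56 and 7.17. Ube2w, which attaches ubiquitin to protein N termini, lies on chromosome 1 from 16540788 to 16619460. It had a peak in replicate 2 alone, from 16617922 to 16619912 with a fold enrichment of 6.38 and its summit 184 bp inside the gene, and the nearest replicate 1 summit was 37677 bp away at Eloc. Ube2cbp had 5.08 and 5.58. No summit lay within 549171 bp of Ube2u in either replicate.

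**Figure D2:**
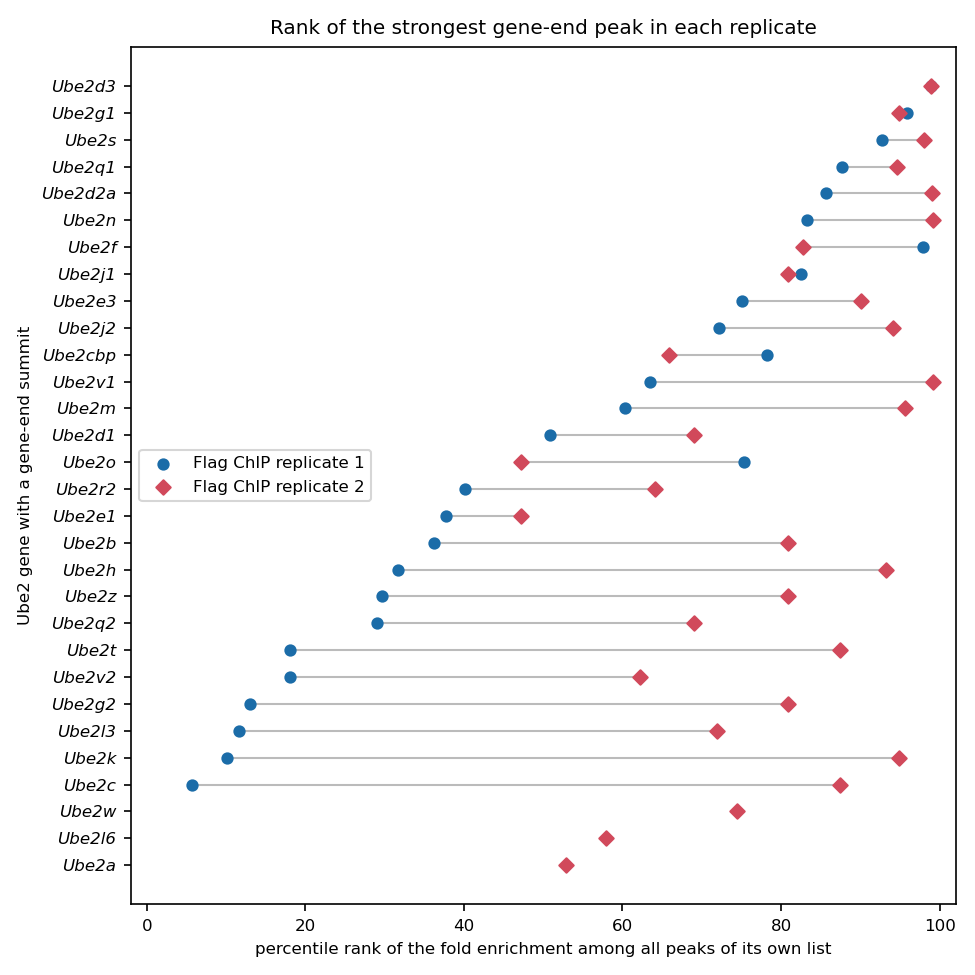
Percentile rank of the strongest gene-end peak by fold enrichment among all peaks of its own list, for the 30 Ube2 genes with a gene-end summit, with circles for Flag ChIP replicate 1 and diamonds for replicate 2. Ranks in replicate 2 were between 47.2 and 99.2 for the called genes, while those in replicate 1 spread from 5.65 to 98.9.

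Over the 27 called members the median −log10 q, the authors' measure of peak confidence, was 5.72 in replicate 1 and 17.8 in replicate 2, beside 6.69 and 16.8 for all called genes. The median fold enrichment was 4.32 in replicate 1 (range 2.80 to 8.16) and 8.24 in replicate 2 (4.52 to 13.0). Over all 6977 called genes the medians were 4.29 and 7.93. The median percentile rank of the members was 60.3 in replicate 1 and 87.4 in replicate 2, beside 58.9 and 85.4 for all called genes. The members' medians were thus close to those of all called genes, slightly above in fold enrichment and rank and below in −log10 q in replicate 1. These gaps were not tested. Peak widths had medians of 640 and 1346 bp beside 661 and 1251 bp. The summits of the 2 replicates lay a median of 105 bp apart, beside 106 bp.

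Few of the members' strongest gene-end peaks were shared with a neighbouring protein-coding gene. In replicate 2 that peak of 1 of the 27 called members (3.70%) was within 1000 bp of the end of another protein-coding gene, beside 2256 of 6977 called genes (32.3%), and replicate 1 gave 1 of 27 (3.7%) beside 32.3%. When summits near several genes were left out, 26 members (70.3%) remained called, beside 21.6% of all genes. Weaker gene-end peaks are not in this count, such as one of Ube2m in replicate 2, 26 bp from the end of Chmp2a. Some members, the highest-scoring Ube2d3 among them, did have ends of noncoding genes close by, and the count does not include these. They include 4930539J05Rik at Ube2d3, 4632404H12Rik at Ube2q1, Gm31852 at Ube2v1, Gm51906 at Ube2g1 and 1700095J07Rik at Ube2h. The difference in the share of peaks shared with a neighbour was not tested.

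The promoter table gave start sites for 30 of the members and 17491 of all protein-coding genes. Those with no entry included Ube2d2a, Ube2e3, Ube2g2, Ube2o, Ube2v2 and Ube2w. Of the 30 with an entry, 22 (73.3%) had a summit within 1000 bp of a start site in both replicates, beside 34.5% of the genes in the table, and they were the same 22 genes that were called by either end. With upstream positions negative, the median position of the summit nearest a start site was -72.5 bp in replicate 1 and -8 bp in replicate 2, beside -35 and -40 bp for all genes. It was downstream in 9 of 22 members in replicate 1 and in 10 of 22 in replicate 2 (40.9% and 45.5%, beside 40.4% and 38.6%). Ube2s kept its summit upstream in both replicates and Ube2j1 downstream in both (211 and 169 bp). Of these 22 genes, Ube2r2 and Ube2e1 had the largest distance between the positions in the 2 replicates. The Ube2r2 summit was 904 bp upstream in replicate 1 and 638 bp downstream in replicate 2, and the Ube2e1 summit was 89 and 607 bp downstream. By the larger of the distances to a gene end in the 2 replicates, Ube2r2, Ube2e1 and Ube2e3 (84 and 554 bp from its end) had the farthest summits of the called genes. Ube2f (544 and 501 bp) and Ube2s were far from a gene end in both replicates. Relative to the nearest annotated start site, however, the Ube2f summits were at -70 and -113 bp. Outside the window in replicate 1 were Ube2a at 3606 bp and Ube2l6 at 17005 bp.

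**Figure D3:**
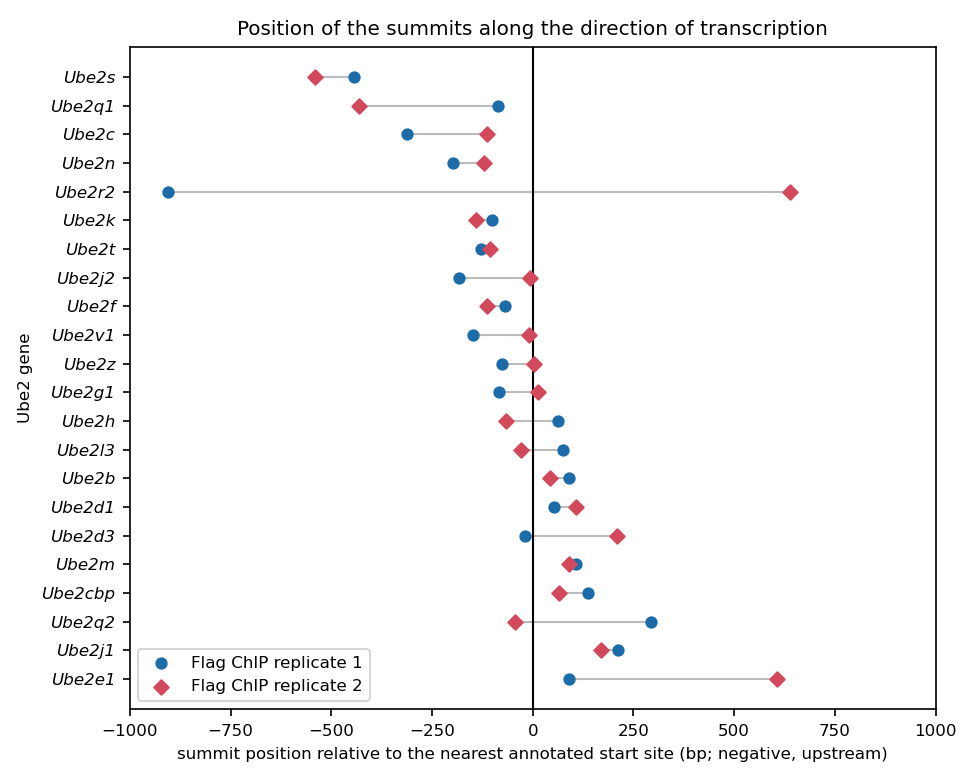
Position of the summit nearest to an annotated start site (bp, negative values upstream in the direction of transcription) for the 22 Ube2 genes with such a summit within 1000 bp in both replicates, with circles for Flag ChIP replicate 1 and diamonds for replicate 2. Summits gather on both sides of the start site, and Ube2r2 has one on each side, at 904 bp upstream and 638 bp downstream.

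Promoter composition, which the choice of members did not use, was read from the 300-base window of the table around the most upstream start site of each gene. The CpG observed/expected ratio is the number of CpG dinucleotides relative to that expected from the C and G content. Its median was 0.877 over the 22 called members (range 0.494 to 1.22) and 0.571 over the 8 others with a window (0.0956 to 1.09). Over all genes the medians were 0.828 for called and 0.344 for other genes. Among members with a ratio of at least 0.6, 20 of 23 (87.0%) were called, beside 57.0% of the 8465 such genes in the table. Among those below it, 2 of 7 (28.6%) were called, beside 10.4% of 9026. Those 2 were Ube2b (0.532) and Ube2l3 (0.494). CpG-rich promoters made up 76.7% of the members' windows and 48.4% of all windows, and neither share was tested. The CpG-rich members that were not called were Ube2a (0.660), Ube2ql1 (0.810) and Ube2e2 (1.09).

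**Figure D4:**
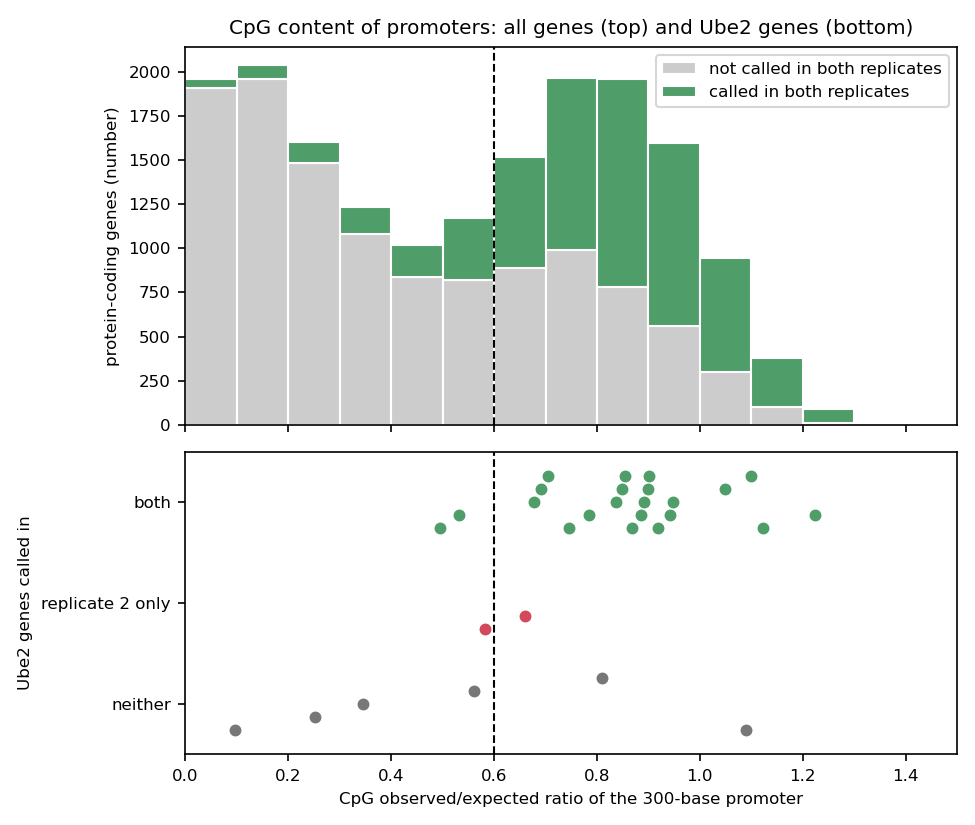
CpG observed/expected ratio of promoter windows of 300 bases, as counts of all protein-coding genes per bin of 0.1 (top, stacked, called in green and not called in grey) and as points for the 30 Ube2 genes with a window (bottom, spread vertically for legibility), with a dashed line at 0.6. The top panel leaves out 2 genes with a ratio of at least 1.5. Of the 22 called Ube2 genes 20 lie right of the line.

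Motifs were searched on both strands of the same windows. GGGCGG, the core of the Sp and Klf family site, was in 20 of 30 members (66.7%) and in 46.3% of all windows. CCGGAAG, an ETS family core, was in 5 members, namely Ube2f, Ube2j2, Ube2n, Ube2q1 and Ube2v1 (16.7%, beside 11.9%). All 5 were called, beside 1344 of the 2083 genes with this motif in the table. Among called genes alone CCGGAAG was in 22.7% of the members and 23.3% of all genes. In the sequences printed above CCGGAAG stands 41 bases before the start of Ube2n and 229 bases before that of Ube2v1. The sequences of Ube2d3, Ube2e1, Ube2e2 and Ube2u do not hold it. GGGCGG was matched at 4 places in Ube2d3 and at 4 in Ube2e1, but also at 2 in Ube2e2, which had no peak. CCAAT was in 9 members (30.0%, beside 39.2%), among them Ube2c and Ube2t, and both Ube2u matches were of this kind. CACGTG was in Ube2b, Ube2cbp and Ube2q1 (10.0%, beside 7.91%) and TGACGTCA in Ube2b and Ube2h (6.67%, beside 2.33%). TATAAA was in 3 members (10.0%, beside 13.3%), the NRF1 site (GCGCA followed by its reverse complement) in Ube2k alone (3.33%, beside 1.33%), and ATGGCGGC, a YY1 core, in Ube2l3 alone (3.33%, beside 3.20%). The palindrome of TCTCG followed by its reverse complement and GATAAG, the erythroid GATA core, were in none (beside 0.726% and 6.88%). In Ube2e1 the last matches to GGGCGG, 27 and 22 bases before the start, overlap by 1 base. A match describes the letters and shows no binding.

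The rest of the ubiquitin pathway was scored the same way with 7 lists that exclude the Ube2 genes, and those named first in each list are among the highest by the score. In all, 112 of 157 genes (71.3%) were called, beside 31.9% of all genes, and the share among the Ube2 genes was 73.0%. With summits near several genes left out, 85 of the 157 were called, beside 26 of 37 Ube2 genes and 21.6% of all genes. The counts per list that follow keep such summits. Of 11 E1 genes 8 were called, including Uba6 (fold enrichment 7.67 and 9.32), Mocs3 (5.98 and 7.17) and the autophagy E1 Atg7 (4.32 and 7.09). The main ubiquitin E1, Uba1, had a summit in neither replicate. Of 20 modifier genes 16 were called, including the ubiquitin gene Ubb (7.39 and 13.98), Gabarap (6.32 and 10.9), Fau (6.13 and 11.96) and Nedd8 (5.86 and 10.4). Rps27a, which encodes ubiquitin fused to a ribosomal protein, was called too. Of 8 E2 and E2-like genes with other symbols 6 were called, with Cdc34 (6.85 and 12.1), Birc6 (6.32 and 13.7), Atg3 (7.62 and 8.65) and Ufc1 (4.48 and 8.77) highest, while Tsg101 and Aktip had no summit.

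Among the ligases, the called share ran from 52.4% in the cullin list to 82.4% in the list of the anaphase-promoting complex. Of 17 genes for the anaphase-promoting complex and its regulators 14 were called, including Anapc10 (6.61 and 7.71), Fbxo5 (5.39 and 10.6), Fzr1 (5.03 and 15.4) and Cdc26 (4.75 and 12.8). The activator gene Cdc20 had a summit in replicate 2 alone. Of 40 single ligases known to work with a Ube2 enzyme 30 were called, led by Brca1 (9.77 and 15.5), Traf2 (6.45 and 10.1), Cbl (6.55 and 9.57) and Ranbp2 (5.51 and 10.95). The Brca1 summits lay 905 and 741 bp from the end of Brca1, toward the limit of the 1000 bp window. Rad18, Rnf20 and Rnf40, the ligases of the Rad6 enzymes, were called, as was Fancl, the ligase of Ube2t, and Maea and Rmnd5a, the ligase subunits that work with Ube2h. Of 21 cullin ligase genes 11 were called (52.4%), the lowest share of the 7 lists, with Cand1 (7.0 and 10.9), Cul3 (5.87 and 10.1), Rnf7 (5.72 and 8.77) and Dcun1d2 (5.47 and 10.1) highest and Skp1a, Cul4b and Dcun1d1 without a summit in either replicate. Of 40 deubiquitinase genes, whose products remove ubiquitin, 27 were called, led by Usp22 (7.53 and 14.9), Josd1 (6.98 and 12.2), Usp28 (6.56 and 10.9) and Cops5 (6.58 and 9.48).

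**Figure D5:**
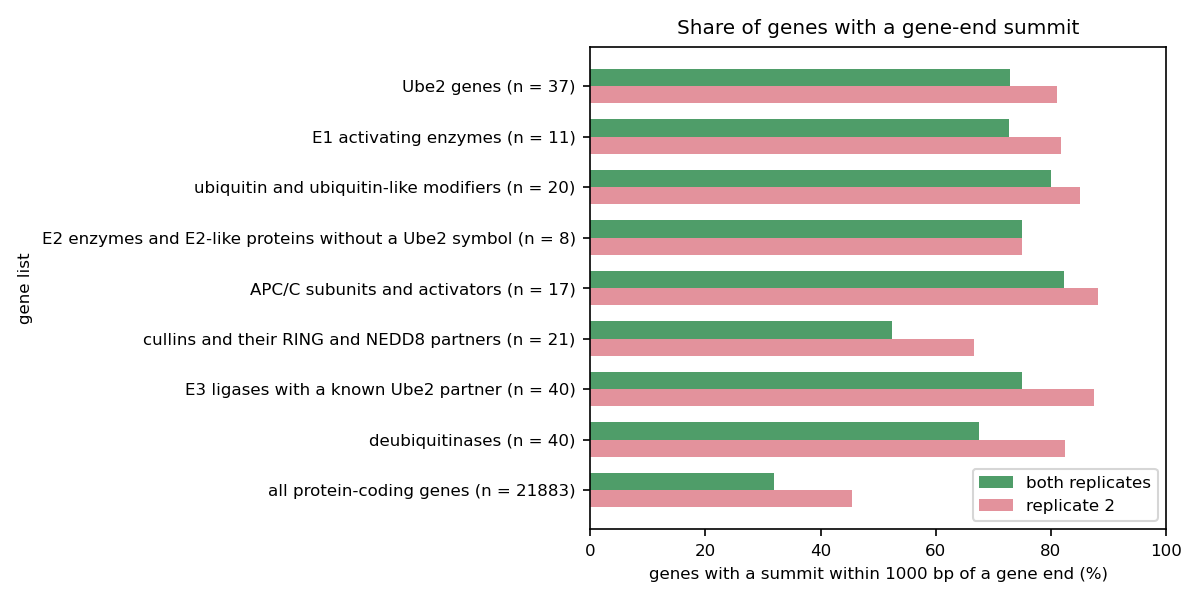
Share of genes (%) with a summit within 1000 bp of a gene end in both replicates (green) and in replicate 2 (red) for the Ube2 genes, 7 other lists of the ubiquitin pathway and all protein-coding genes, with the number of genes in brackets. The 7 lists run from 52.4% to 82.4% in both replicates, with the Ube2 genes at 73.0% and all genes at 31.9%.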

How the data were processed

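Flag ChIP-seq peak lists were analysed for 2 libraries. The authors used cutadapt, Trimmomatic, FastQC, Bowtie2, MACS2 and ChIPseeker with mm10, per the submitters' processing notes, where versions and order are absent. For peak calling, neither cutoff nor control is given in the sources used here. The deposited columns used were peak start and end, summit offset, fold enrichment (a ratio over background) and −log10 q. The deposited score is a whole-number form of −log10 q and was not used. Depth per library is unknown.

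The summit was the start plus the offset, counted from 0, so distances may be off by 1 bp. Printed positions count from 1. Gene bounds and promoters came from the RefSeq tables of GRCm38.p6, with 21883 protein-coding genes. Of 158 names in the pathway lists all matched, 3 of them by synonym, and 1 that matched Ube2r2 was left out. Members and lists were chosen with earlier results of these data known. All members were to be named, and a few genes are not reported here. Full positions were given for the 8 with the highest score (the lower of the percentile ranks in the lists) and those found in a single replicate, and values for up to 4 genes per pathway list. The CpG class limit and further genes named in the pathway lists, and peaks away from gene ends, were chosen after their values were seen. Protein features in the planned design were not analysed here. The calling step was run on simulated data with summits planted inside the window in both lists, where 2000 of 2000 planted genes were recovered. This checks the code alone and gives no measure of sensitivity in the real lists. Calculations used Python 3.11.15, numpy 2.4.6 and pandas 2.3.3.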

Additional observations from a re-analysis of the deposited data

How the results depend on the processing

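The count of 27 called Ube2 genes was between 22 and 28 with windows of 500 and 3000 bp, lists of equal length, overlapping peaks at the same end, no summits near several genes, or start sites alone. In these settings the share of all genes ran from 21.6% to 36.8%. For start sites the count was 22 of the 30 members with an entry. Where each replicate's peak had to reach −log10 q 5 the count of Ube2 genes was 16 (43.2%), beside 21.1% of all genes. With fold enrichment of at least 5 it was 9, beside 9.51%, and the count for the other pathway genes was 48 in place of 112. When peaks at the same end had to overlap by 50% of both it was 13, beside 17.96%, and 68 for the pathway. With a single replicate the counts were 27 to 30 for the Ube2 genes, beside 32.6% to 45.5% of all genes. Over all 13 alternatives the share of Ube2 genes was 1.78 to 3.25 times that of all genes. Counting summits from 1 and leaving out Ube2cbp were chosen after seeing the data. The 500 bp window lost Ube2e1, Ube2e3, Ube2f, Ube2r2 and Ube2s, and the 3000 bp window gained 1 gene. No paired analysis was possible because the 2 peak lists belong to the same group and no test between groups was made. Depth, and so how many weaker sites each list could hold, is unknown.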
